A study of Rattus norvegicus with 20 samples.

Results

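Of the 719 rat microRNAs (miRNAs) on the array, 102 carry a miRBase number of 3000 or higher, whatever their arm or suffix, and these are the members described here. They fall into 3 runs of numbers, with 11 members from 3065 to 3120, 68 from 3473 to 3596 and 23 from 6215 to 6334. The kidneys came from male Wistar rats of 80 to 100 g. Aristolochic acid I (AAI) is a plant compound that damages the kidney and forms DNA adducts. Treated rats received 40 mg of it per kg intraperitoneally over up to 6 days, and kidneys were taken on day 2, day 4 or day 6, with 5 kidneys per day. The 5 vehicle kidneys were taken on day 6 after PEG400 (polyethylene glycol) in water on the same schedule. No vehicle kidneys of day 2 or day 4 were analysed here. Each kidney was run on 1 array labelled with Cy3, 20 arrays in all. The labels do not say whether the 5 kidneys of a group came from 5 rats, so p-values measure the spread between these kidneys.

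A miRNA is cut from a hairpin by Drosha and Dicer, and the mature strand that is loaded into Argonaute finds its targets mainly through the seed, bases 2 to 8. miRBase numbers miRNAs in the order in which they were registered, so a high number marks a late entry, often found by deep sequencing, and says nothing of function. Many late entries are weakly expressed, lie inside introns of other genes, or are read from the strand opposite an older miRNA gene. In kidney the best known miRNAs are older entries such as miR-192 and miR-194 of the proximal tubule. All 10 kidney markers checked here were detected on all 20 arrays. Markers of other organs were low but not all absent. The liver marker miR-122-5p was detected on 4 arrays, with a signal of at most 0.135 times an array's 75th percentile. Of 3 striated muscle markers, miR-1-3p was not detected on any array and the others on some, with a summed signal of at most 0.0367. Of 3 brain markers 2 were detected on all 20 arrays (summed signal of all 3 from 0.214 to 0.423), as was the islet marker miR-375-3p (0.0503 to 0.126).

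The sequences below are those of the members that the comparisons turn on, from RefSeq on build GRCr8, written 5′ to 3′ with the seed in capitals. The first 4 are the members that were higher at day 6 than in vehicle.
miR-6216: gAUACACAgaggcaggaggagaa
miR-3473: uCUAGGGCuggagagauggcua
miR-3584-5p: gGGAGGAGuccaggaggc
miR-3562: uUGGGGCAguggcuggauggga
The next 3 had uneven levels within the AAI groups, as did miR-3588 and miR-3593-5p.
miR-3099: uAGGCUAGaaagagguugggga
miR-3558-3p: aCUGUGGAggguuucuaugu
miR-3580-3p: uGACUAGGguaguaugaguaga
These 7 seeds differ from each other. Of the 91 members with a RefSeq sequence, 3 shared a seed with an older miRNA of the array, and none of these 3 was detected on any array. miR-3065-5p shared the seed of miR-7a-1-3p, miR-3573-5p that of miR-423-5p, and miR-3596d that of let-7a-1-3p and let-7b-3p, among others.

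On GRCr8, miR-6216 lies on the minus strand at chr3:65165595-65165617, outside any annotated protein-coding or long non-coding gene. miR-3473 lies on the plus strand at chr13:42051730-42051751 within Zranb3. miR-3584-5p lies on the minus strand at chr1:256727582-256727599 within Itprip. miR-3562 lies on the minus strand at chr10:105848002-105848023 within Cep131. Of the 91 members with a sequence, 55 lay within a protein-coding gene, 16 within a long non-coding gene only and 20 in neither, without regard to strand or exon.

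Most members gave no detected signal in these kidneys. The scanner software marks a miRNA as detected or not on each array. Of the 102 members, 61 were not detected on any array, 21 were detected on 1 to 19 arrays and 20 on all 20 arrays. Thus 40.2% of members were detected at least once, against 51.2% of the other 617 miRNAs, and 19.6% against 34.2% were detected on all 20. The share detected at least once was 54.5% for numbers 3065 to 3120, 35.3% for 3473 to 3596 and 47.8% for 6215 to 6334. These shares describe 1 array design and were not tested, because probes differ in how well they hybridise. Members detected on all 20 arrays had a median GC content of 55.8% and members never detected 45.6%. The same medians for the other miRNAs were 46.6% and 45.5%.

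For 16 hairpins both arms were on the array as members. In 6 of them neither arm was detected, in 4 only the 5p arm, in 4 only the 3p arm and in 2 both. miR-3557, miR-3558 and miR-3573 gave the 3p arm on all 20 arrays and the 5p arm on none. miR-3559 and miR-3584 gave the 5p arm on all 20 arrays and the 3p arm on none. miR-3593 gave its 3p arm on 20 arrays and its 5p arm on 13, and miR-3068 its 3p arm on 20 and its 5p arm on 3. So in most of the hairpins with any signal, 1 arm was detected and the other was not. For miR-3561 and miR-3594 the detected arm, 5p, was detected on only 2 and 3 arrays. Each arm has its own probes, so a difference between probes cannot be told apart from a difference between arms. As background, 1 strand of a miRNA duplex is usually kept in Argonaute and the other degraded.

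A large group of members is encoded across from older miRNAs. For 32 of the 91 members with a sequence, the mature sequence overlapped that of another array miRNA on the opposite strand of GRCr8, each with 1 partner. In 19 of these pairs the whole member was complementary to its partner. A few are shown with the complementary stretch in capitals, the member first and its partner second. They were chosen as the pair with the best known partner and the pairs in which the member was detected on all 20 arrays.
miR-3596a: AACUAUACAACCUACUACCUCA
let-7a-5p: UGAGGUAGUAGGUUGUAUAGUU
miR-3588: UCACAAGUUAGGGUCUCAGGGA
miR-125b-5p: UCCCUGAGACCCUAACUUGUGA
miR-3557-3p: ACACAGGACCUGGAGUCAGGAG
miR-378a-5p: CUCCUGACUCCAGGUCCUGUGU
miR-3546: AUAACCCGGGCCAAAAGCUCac
miR-208a-5p: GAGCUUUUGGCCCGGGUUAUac
miR-3544: AACUCCUGCAUGACGCCGuuccc
miR-337-5p: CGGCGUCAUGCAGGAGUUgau
An RNA from one strand can be cut into a different miRNA from the RNA of the other strand, and a probe for the member has the sequence of the partner, so over the shared stretch it does not pair with the partner.

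Of these 32 opposite-strand members, 6 were detected on at least 1 array (18.8%), against 31 of the 59 other members with a sequence (52.5%). In 14 pairs the partner was detected on all 20 arrays. In 11 of those the member was not detected on any array. These 11 include miR-3596a, miR-3596b, miR-3596c and miR-3596d, which lie across from let-7a, let-7d, let-7e and let-7f, and miR-3556a, miR-3556b and miR-3587, which lie across from the miR-29 family. The exceptions were miR-3574, across from the hypoxia-induced miR-210-3p and detected on 1 array, and miR-3557-3p and miR-3588, detected on all 20. In 11 further pairs neither miRNA was detected on any array. The reverse also occurred. miR-3544 was detected on all 20 arrays and its partner miR-337-5p on none, and miR-3546 was detected on all 20 and miR-208a-5p, from a cardiac myosin gene, on 4.

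**Figure D1:**
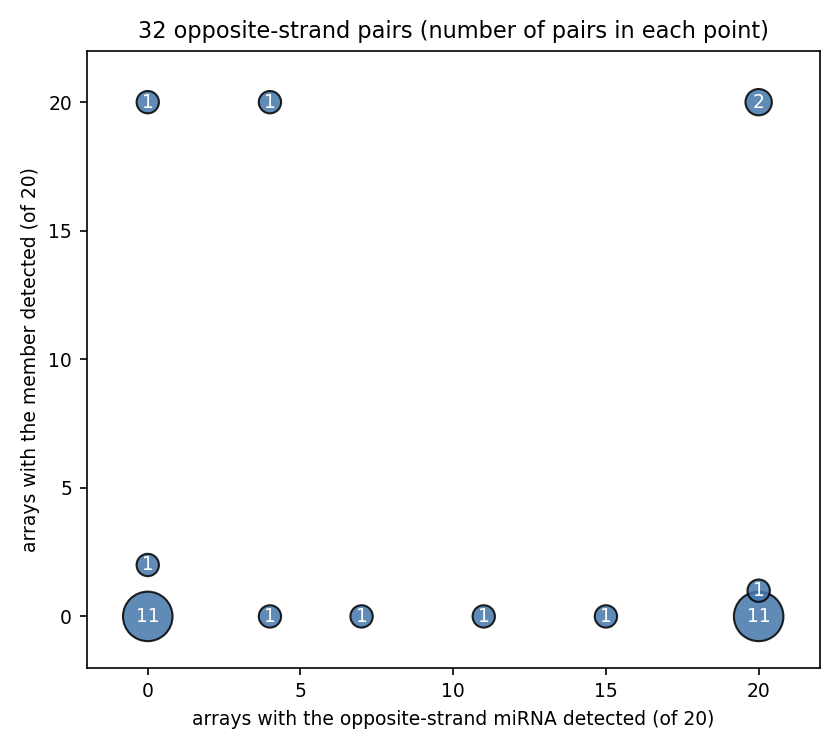
Each point places opposite-strand pairs by the number of arrays, of 20, on which the older miRNA (x axis) and the member (y axis) were detected, and the figure in the point is the number of pairs. Of 32 pairs, 11 sit at 20 arrays for the partner and 0 for the member, and 11 at 0 for both.

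Within 2 of these pairs both miRNAs were tested. At day 6 miR-378a-5p was lower than in vehicle by -0.36 ± 0.09 on the log2 scale (SE, limma adjusted p = 0.00667), while its opposite-strand miR-3557-3p differed by 0.92 ± 0.42 (adjusted p = 0.104). miR-125b-5p was lower by -0.19 ± 0.06 (limma adjusted p = 0.0294), and its opposite-strand miR-3588 differed by -0.52 ± 0.22 (adjusted p = 0.0887). The difference between the 2 strands was not tested.

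Before the levels are compared, 4 arrays need naming. Members detected per array averaged 24 ± 1.58 in vehicle (SD, n = 5) and 24.4 ± 1.52 at AAI day 2. They averaged 26 ± 6.82 at day 4 and 28.2 ± 5.54 at day 6. Over all miRNAs the averages rose in the same order, 265 ± 4.16, 269 ± 11.5, 287 ± 23.5 and 289 ± 23.1, so the rise is not particular to members. AAI day 4 array 2 had 38 members detected, against 22 to 25 on the other day 4 arrays. At day 6, arrays 1, 3 and 4 had 31, 32 and 33, and arrays 2 and 5 had 20 and 25. AAI day 4 array 2 and AAI day 6 arrays 1, 3 and 4 were thus the 4 arrays with over 30 members detected, and the vehicle and day 2 arrays ranged from 22 to 27. By the stricter flag for spots well above background, members counted per array were 17 to 18 in vehicle and 19 to 22 at day 2. They were 17 to 35 at day 4 and 16 to 29 at day 6. The same count over all miRNAs is not given here, so these counts are not particular to members. The 75th percentile of unscaled signal ran from 312 to 452 in vehicle and from 384 to 592 at day 2. Of the vehicle arrays, 4 were on another slide than the day 2 arrays. Of the 21 members detected on some but not all arrays, 11 (52.4%) were detected on none but these 4 arrays, against 26.7% of the other miRNAs detected on some arrays. Since members' own detection picked these arrays, a higher share among members follows in part from the choice and supports nothing. The 11 are miR-3550, miR-3560, miR-3561-5p, miR-3568, miR-3574, miR-3582, miR-3594-5p, miR-6318, miR-6322, miR-6326 and miR-6332. Over all miRNAs, 328 were detected on AAI day 4 array 2, the highest number, and 250 on AAI day 6 array 2, the lowest.

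Members took a small and uneven share of the signal. Summed over all miRNAs of an array, members gave 1.59% ± 0.421 of the signal in vehicle (SD, n = 5) and 1.96% ± 0.334 at day 2. They gave 2.47% ± 1.65 at day 4 and 4.18% ± 3.01 at day 6. The highest shares of signal were 8.67% on AAI day 6 array 3, 5.79% on array 4 and 5.32% on AAI day 4 array 2. Much of the share on these arrays came from 1 member, miR-3473, with unscaled signals of 13000, 7770 and 5420 in that order. The next member, miR-6216, had 1640, 1290 and 1520. AAI day 6 arrays 2 and 5, at 1.78% and 1.69%, lay within the vehicle range of 1.19% to 2.25%.

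**Figure D2:**
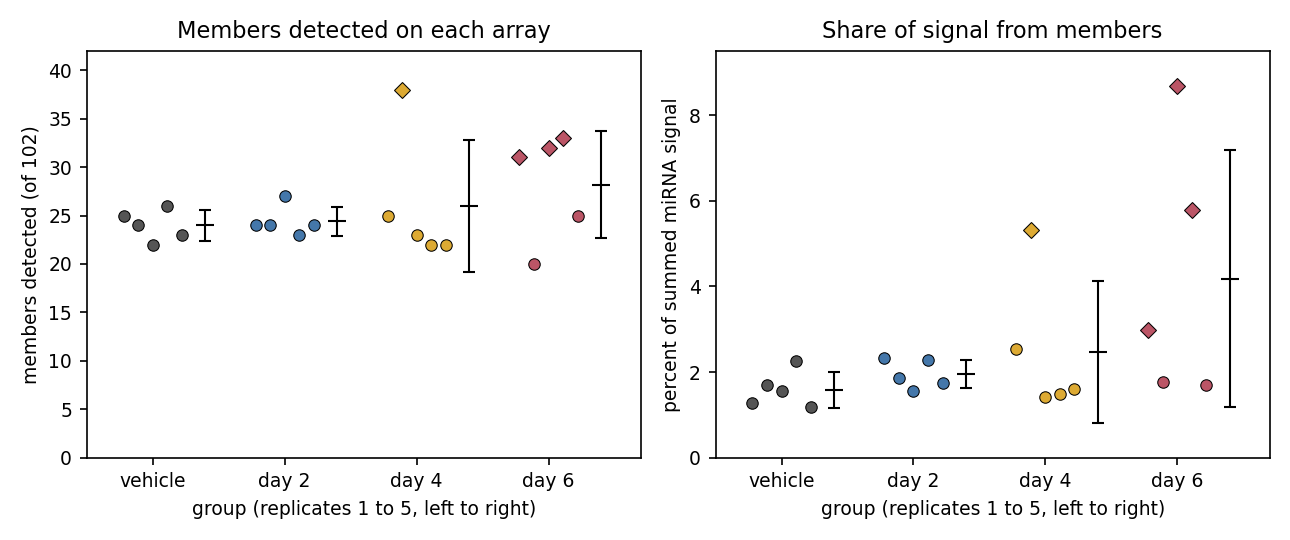
Left, members detected on each array (y axis, of 102); right, the percent of the summed miRNA signal that came from members. Points are arrays in the order of replicates 1 to 5 within vehicle and AAI day 2, 4 and 6, diamonds are the 4 arrays with over 30 members detected, and bars are the mean and SD. Vehicle and day 2 arrays overlap, and the spread at day 4 and day 6 comes from the diamonds.

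Testing was limited to miRNAs detected on each of the 5 arrays in 1 group or more, which left 23 of 102 members and 262 of 719 miRNAs. Levels are log2 signals relative to the 75th percentile of the array, so 1 unit is a doubling, and the lowest level possible was -11.32. Levels of different miRNAs were not compared, since each has its own probes. In a bulk kidney sample, fewer cells of a type and less RNA per cell cannot be told apart.

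At AAI day 6, 4 of the 23 tested members were higher than in vehicle and 0 lower (limma, Benjamini-Hochberg adjusted p under 0.05 over the 262 tested miRNAs). Over all tested miRNAs, 7.25% were higher and 19.1% lower, 19 and 50 of 262. The 4 are miR-6216, miR-3473, miR-3584-5p and miR-3562. The median difference was -0.03 over the 23 members, from -2.15 to 1.7, and -0.11 over all tested miRNAs. Of the members, 11 had a positive and 12 a negative difference, and 9 reached an unadjusted p under 0.05 in limma. Of all 262 tested miRNAs, 92 had a positive and 170 a negative difference, and 110 reached that unadjusted p.

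**Figure D3:**
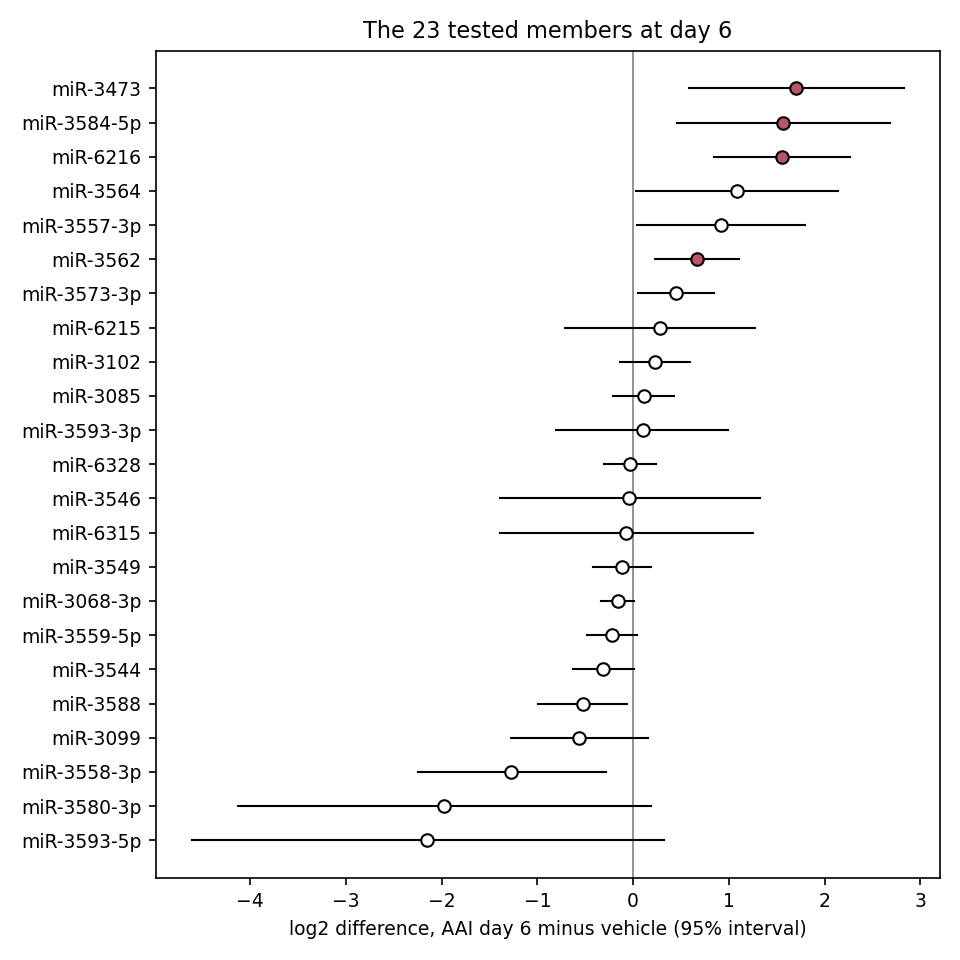
Log2 difference between AAI day 6 and vehicle (x axis) with its 95% interval from limma, for each of the 23 tested members (y axis), ordered by size. Filled points are the 4 members with an adjusted p under 0.05, which run from 0.67 for miR-3562 to 1.7 for miR-3473, and the widest intervals belong to miR-3580-3p and miR-3593-5p.

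miR-6216, a purine-rich miRNA (82.6% A or G), was the member with the clearest difference. Its levels on vehicle arrays 1 to 5 were -0.61, -0.25, -0.56, 0.16 and -0.85. At day 2 they were 0.01, -0.05, -0.76, 0.23 and -0.15, and at day 4 they were 0.28, 1.45, -0.36, -0.27 and 0.09. At day 6 they were 1.91, 0.41, 1.64, 1.29 and 0.44. Every day 6 array was above every vehicle and every day 2 array, while day 4 overlapped with all other groups. Non-overlap of this kind at day 6 against vehicle held for 4.2% of tested miRNAs. The difference at day 6 was 1.56 ± 0.34 (SE), a 2.94-fold higher level with a 95% interval of 1.79 to 4.83 (limma adjusted p = 0.00292). It was also the member that passed the F test over the 4 groups (F = 7.97, limma adjusted p = 0.0151), a test passed by 19.1% of all tested miRNAs. It was higher at day 6 than at day 2 by 1.28 ± 0.34 (limma adjusted p = 0.0250), where 3.44% of tested miRNAs were higher and 8.02% lower. That last call was lost without AAI day 2 array 5 (limma adjusted p = 0.0508), AAI day 6 array 1 (adjusted p = 0.0625) or AAI day 6 array 3 (adjusted p = 0.0603). Its differences from vehicle were 0.28 ± 0.34 at day 2 (limma adjusted p = 0.808) and 0.66 ± 0.34 at day 4 (adjusted p = 0.262).

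miR-3473 had a wide spread. Its vehicle levels were 0.3, 1.37, 1.37, 2.11 and 0.47, and its day 2 levels 2.36, 1.61, 1.24, 2.06 and 1.51. At day 4 they were 2.24, 3.28, 1.39, 1.47 and 1.43, and at day 6 they were 2.25, 1.69, 4.62, 3.88 and 1.7. Day 6 arrays 3 and 4 stood above all others, and arrays 2 and 5 lay within the vehicle range. The difference at day 6 was 1.70 ± 0.54, 3.26-fold with an interval of 1.49 to 7.11 (limma adjusted p = 0.0234). Without AAI day 6 array 3 the difference was 1.26 (limma adjusted p = 0.0749), and without array 4 it was 1.44 (adjusted p = 0.0654).

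The 3′ part of miR-3473 recurs in the rat genome. Its last 14 bases before the final one, CTGGAGAGATGGCT in DNA letters, were found on either strand in 120 of 33469 RefSeq promoter windows of 300 bases (0.359%). The same stretch of the other 21 tested members with a sequence was found in at most 2 windows each. As background, the B2 family of short interspersed elements, copied many times in rodent genomes, holds a sequence of this kind. Both array probes for miR-3473, of 15 and 16 bases, lie over this stretch, and whether RNA from other copies added to the signal was not tested.

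miR-3584-5p is a short G-rich miRNA of 18 bases. Its vehicle levels were -2.97, -2.42, -2.83, -2.13 and -3.42, and its day 2 levels -1.91, -2.1, -2.49, -2.05 and -1.99. At day 4 they were -1.48, -0.44, -2.1, -2.39 and -2.5, and at day 6 they were -1.69, -2.47, 0.64, 0.08 and -2.47. The high arrays were again day 4 array 2 and day 6 arrays 3 and 4, and day 6 arrays 2 and 5 lay within the vehicle range. The difference at day 6 was 1.57 ± 0.53, 2.97-fold with an interval of 1.37 to 6.43 (limma adjusted p = 0.0343). It was 1.11 without array 3 (limma adjusted p = 0.103) and 1.26 without array 4 (adjusted p = 0.0942).

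miR-3562 had a smaller difference and a narrower spread. Its vehicle levels were -2.81, -3.07, -3.31, -2.94 and -2.98, and its day 2 levels -2.85, -2.72, -2.93, -2.15 and -2.19. At day 4 they were -2.37, -1.64, -2.6, -2.62 and -2.44, and at day 6 they were -2.56, -2.23, -2.04, -2.04 and -2.89. All day 4 arrays were above all vehicle arrays, while day 2 and day 6 overlapped with vehicle. Non-overlap of this kind, higher at day 4 than in vehicle, held for 3.05% of tested miRNAs. The difference was 0.45 ± 0.21 at day 2 (limma adjusted p = 0.417), 0.69 ± 0.21 at day 4 (adjusted p = 0.0764) and 0.67 ± 0.21 at day 6 (adjusted p = 0.0230), the last 1.59-fold with an interval of 1.17 to 2.15. It was 0.59 without AAI day 6 array 3 (limma adjusted p = 0.0656) and 0.59 without array 4 (adjusted p = 0.0602). The calls of miR-3473 and miR-3584-5p were also lost without vehicle array 1 or 5, and those of miR-3562 and miR-3584-5p without vehicle array 3.

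**Figure D4:**
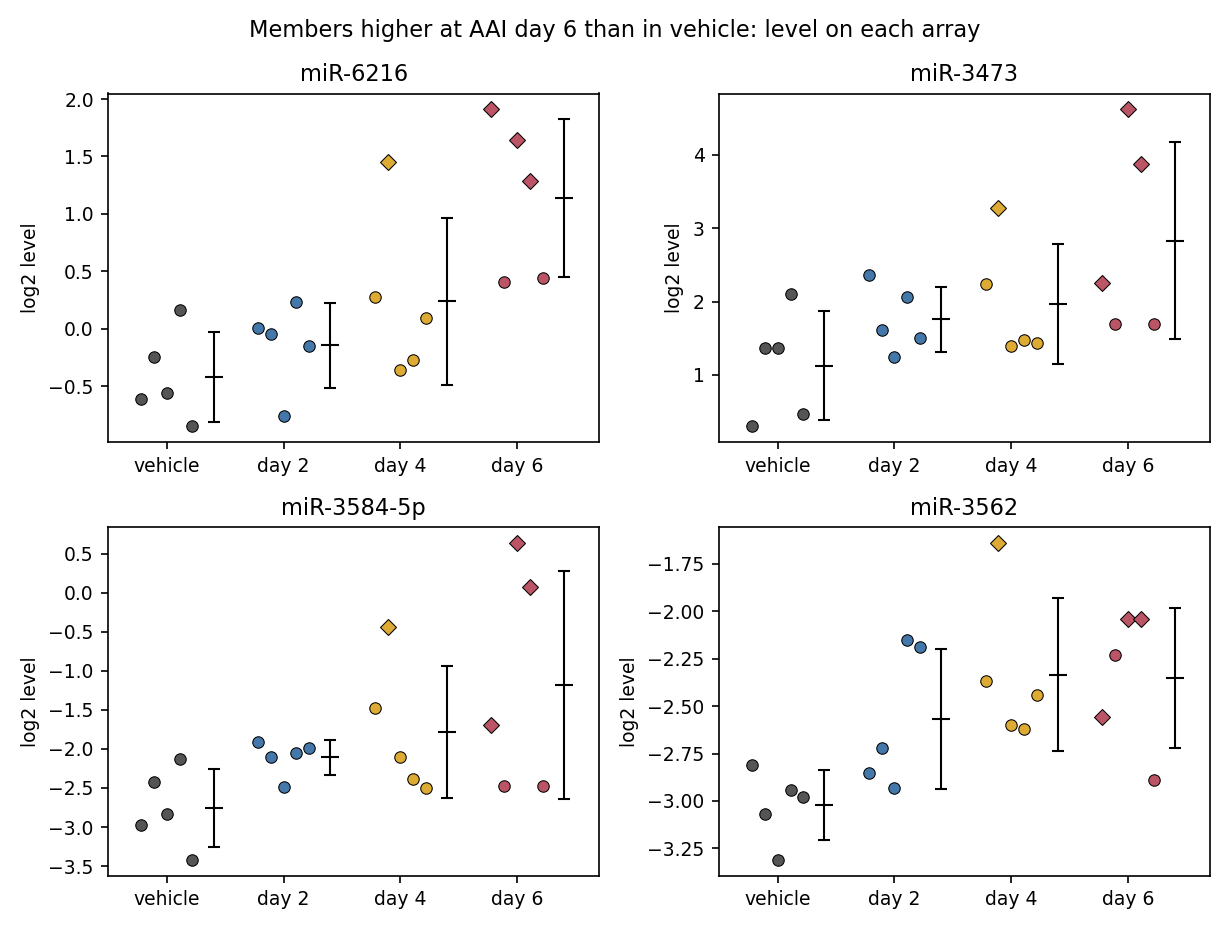
Log2 level relative to the 75th percentile of the array (y axis) of miR-6216, miR-3473, miR-3584-5p and miR-3562 on each array of vehicle and AAI day 2, 4 and 6. Diamonds are the 4 arrays with over 30 members detected, and bars are the mean and SD. The day 6 points of miR-6216 lie between 0.41 and 1.91, above the vehicle points, whereas for miR-3473 and miR-3584-5p 2 day 6 arrays stand apart from the rest.

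The slides on which arrays were run limit these comparisons. Slide 3 held 4 vehicle arrays, slide 2 held 1 vehicle array, the 5 day 2 arrays and 2 day 4 arrays, and slide 1 held 3 day 4 arrays and the 5 day 6 arrays. No slide held both vehicle and day 6 arrays, and none held both day 2 and day 6 arrays, so no within-slide value exists for either comparison. With slide as a fixed block, 9 members were higher at day 6 and 0 lower, against 11.1% higher and 22.5% lower of all tested miRNAs. The 9 included miR-6216, miR-3473 and miR-3584-5p but not miR-3562. In this fit miR-6216 differed by 3.03 ± 0.68 (limma adjusted p = 0.0116). That fit links the slides through 3 arrays, 1 of which is AAI day 4 array 2. With slide as a fixed block and without that array, 0 members and 0 of all tested miRNAs passed, and miR-6216 differed by 2.45 ± 0.71 (limma adjusted p = 0.0619). With slide as a random block, 5 members were higher, against 5.34% of tested miRNAs higher and 17.9% lower. They were the 4 called without a block and miR-3557-3p.

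Unlike the members above, a second set was low on some AAI arrays. miR-3588 had vehicle levels of -0.09, -0.2, -0.2, -0.35 and -0.08 and day 2 levels of -0.04, -0.14, -0.61, -0.2 and -0.19. At day 4 its levels were -0.85, -0.13, -1.16, -0.63 and -0.6, and at day 6 they were -0.51, -0.89, -0.26, -0.25 and -1.62. Day 4 arrays 1, 3, 4 and 5 and day 6 arrays 1, 2 and 5 were below all vehicle arrays, whereas day 4 array 2 and day 6 arrays 3 and 4 lay within the vehicle range.

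miR-3099 and miR-3558-3p were low on much the same arrays. The vehicle levels of miR-3099 ran from -2.25 to -2.02, and its day 2 levels from -2.38 to -1.9. At day 4 they were -2.89, -1.56, -3.33, -2.96 and -2.76, and at day 6 they were -2.32, -3.36, -1.84, -1.97 and -3.88. The vehicle levels of miR-3558-3p ran from -2.8 to -2.34, and at day 2 from -2.77 to -2.29. At day 4 they were -3.99, -2.35, -4.53, -3.8 and -3.53, and at day 6 they were -3.01, -4.78, -2.73, -2.82 and -5.57. In both, the arrays with low values were day 4 arrays 1, 3, 4 and 5 and day 6 arrays 2 and 5, and day 6 array 1 lay below the vehicle range by less. Day 4 array 2 and day 6 arrays 3 and 4 lay above the vehicle range for miR-3099. For miR-3558-3p, day 4 array 2 and day 6 array 3 lay within it and day 6 array 4 just below.

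miR-3580-3p and miR-3593-5p were detected on 13 arrays each. Both were detected on 4 vehicle arrays, 5 day 2 arrays, 1 day 4 array and 3 day 6 arrays. The day 4 array was array 2 and the day 6 arrays were 1, 3 and 4, the 4 arrays with over 30 members detected. At day 6 the levels of miR-3580-3p were -4.65, -11.32, -4.42, -4.79 and -8.66, and those of miR-3593-5p were -5.12, -11.32, -4.52, -4.67 and -11.32. The value -11.32 is the lowest level possible, so these 2 members have only an upper bound there.

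None of these 5 members passed the test at day 6. The differences were -0.52 ± 0.22 for miR-3588, -0.56 ± 0.34 for miR-3099, -1.27 ± 0.47 for miR-3558-3p, -1.97 ± 1.03 for miR-3580-3p and -2.15 ± 1.17 for miR-3593-5p, with limma adjusted p from 0.0522 to 0.224. miR-3558-3p was nearest to it and passed when AAI day 6 array 1, 3 or 4 was left out (-1.46, -1.53 and -1.51, limma adjusted p from 0.0274 to 0.0341). Without array 2 or 5 of day 6 its difference was -1.02 or -0.82 (limma adjusted p = 0.107 and 0.129). The values of miR-3580-3p and miR-3593-5p rest on levels at or near the lowest possible one. Without AAI day 6 array 2 they were -0.83 and -1.16, and without array 5 they were -1.50 and -1.16. Both members entered the test through day 2, where they were detected on all 5 arrays.

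Fits without AAI day 6 arrays 3 and 4, or without all 4 arrays with over 30 members detected, were tried after the data were seen. In both, miR-6216 was the member called higher at day 6, against 8.4% and 8.78% of tested miRNAs higher. Its difference was 0.84 without the 4 arrays, and those of miR-3473 and miR-3584-5p, at 0.57 and 0.28, were not called. The 5 members above were called lower in both fits, against 14.9% and 13.7% of tested miRNAs lower. Since these members were described for being low outside these arrays, and members' signal picked the arrays, the lower calls follow from the choice and support nothing. The part of these 4 arrays in the results was not tested further.

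**Figure D5:**
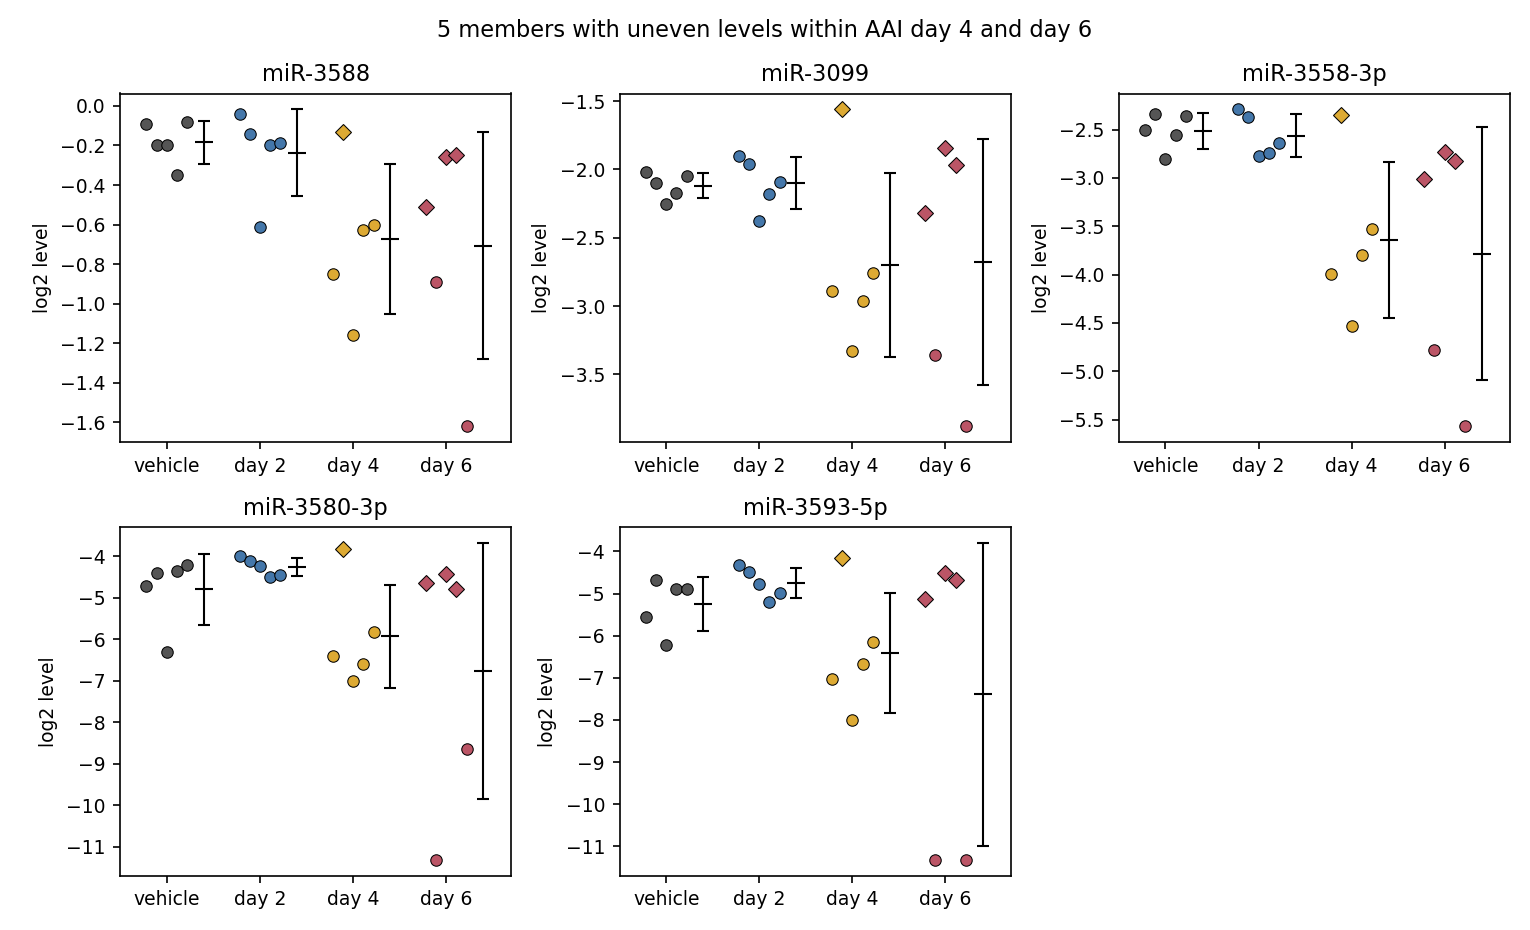
Log2 level (y axis) of miR-3588, miR-3099, miR-3558-3p, miR-3580-3p and miR-3593-5p on each array of vehicle and AAI day 2, 4 and 6, with the mean and SD as bars. Diamonds, the 4 arrays with over 30 members detected, lie near the vehicle points. The other day 4 and day 6 arrays (circles) lie below all vehicle points, apart from day 4 array 5 for miR-3580-3p (-5.83) and miR-3593-5p (-6.16). For these 2 members vehicle array 3 was lower, at -6.31 and -6.22. The lowest level possible is -11.32.

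The next members were high on AAI day 4 array 2 in particular. miR-6215 had vehicle levels of -2.03, -1.68, -1.18, -0.41 and -2.1 and day 2 levels of -1.6, -1.65, -1.97, -0.96 and -1.62. At day 4 its levels were -0.89, 1.17, -1.83, -1.94 and -1.98, and at day 6 they were -1.17, -1.29, -1.16, -0.88 and -1.49. Array 2 of day 4 was the highest of the 20 and all groups overlapped. miR-6315, miR-3546 and miR-3593-3p were also highest on that array, at -0.52, -0.99 and -0.21, and their day 6 differences from vehicle were -0.07 ± 0.63, -0.04 ± 0.64 and 0.10 ± 0.43. Among vehicle arrays, these 4 members were all highest on array 4.

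miR-3557-3p and miR-3564 had intermediate differences at day 6 that did not pass. miR-3557-3p, read across from miR-378a-5p, had vehicle levels of -4.73, -4.2, -4.23, -3.41 and -4.66 and day 6 levels of -3.74, -3.25, -2.83, -2.92 and -3.9. All day 6 arrays of miR-3557-3p were above all its day 2 arrays, but barely, since the lowest day 6 and the highest day 2 level both round to -3.9. For miR-6216 these 2 levels were 0.41 and 0.23. Of tested miRNAs, 2.67% were placed so. miR-3564 was detected on 3 of 5 vehicle arrays and 4 of 5 at day 6, and differed by 1.09 ± 0.50 (limma adjusted p = 0.109). Its day 6 levels were -4.16, -4.82, -2.41, -2.79 and -4.75, and its vehicle levels ran from -5.5 to -4.18. Arrays 3 and 4 of day 6 thus stood apart, while arrays 2 and 5 lay within the vehicle range and array 1 just above it.

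At day 2, 0 of the 23 members differed from vehicle by limma's adjusted p, while 1.53% of all tested miRNAs were higher and 0% lower. At limma's unadjusted p under 0.05 there were 2 of the 23 members and 30 of the 262 tested miRNAs. The 2 members were miR-3573-3p at 0.48 ± 0.19 and miR-3562. At day 4, 0 of the 23 differed by limma's adjusted p, while 2.29% of all tested miRNAs were higher and 1.53% lower. At limma's unadjusted p under 0.05 there were 5 of the 23 members and 58 of the 262 tested miRNAs. The 5 members were miR-3562, miR-3573-3p at 0.60 ± 0.19, miR-3544 at -0.44 ± 0.15, miR-3588 and miR-3558-3p. The median difference of the 23 members was 0.01 at day 2 and 0.02 at day 4, and that of all tested miRNAs -0.04 and -0.07. The 3 comparisons with vehicle share the same 5 control arrays. Between AAI days, 0 members passed for day 4 against day 2 and 0 for day 6 against day 4, with 1 each at limma's unadjusted p under 0.05. Among all tested miRNAs 0% passed in the first, and 0.382% were higher and 0.382% lower in the second. By limma's unadjusted p, 18 of the 262 tested miRNAs lay under 0.05 in the first and 24 in the second.

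Of the remaining members detected on all 20 arrays, miR-3573-3p differed at day 6 by 0.45 ± 0.19 (limma adjusted p = 0.0884). miR-3544 differed by -0.31 ± 0.15 (limma adjusted p = 0.132). The others had smaller differences. miR-6328, miR-3549, miR-3068-3p, miR-3559-5p, miR-3085 and miR-3102 had day 6 differences between -0.22 and 0.23, with SEs from 0.08 to 0.17, and adjusted p of 0.142 or higher in limma. For miR-6328 the 95% interval was -0.30 to 0.24, and for miR-3068-3p -0.34 to 0.01. For 21 of the 23 tested members, all probes gave day 6 differences of the same sign, the exceptions being miR-3546 and miR-6315.

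Scaling moved the split between higher and lower for all miRNAs more than for the members. With signals left unscaled, the median over all tested miRNAs at day 6 was 0.25, with 33 higher and 1 lower (12.6% and 0.382%), and 6 members were higher, the 4 above with miR-3102 and miR-3573-3p. With labelling spike-ins it was 0.14, with 19 higher and 1 lower (7.25% and 0.382%), and 4 members were higher, miR-3584-5p being replaced by miR-3573-3p. The 4 members called above were positive in each of these fits. The summed signal of 2 erythrocyte miRNAs ran from 0.407 to 1.34 in vehicle and from 0.0524 to 0.202 at day 6, and that of 6 leukocyte miRNAs from 4.02 to 4.23 and from 2.69 to 3.53. That of 2 endothelial miRNAs ran from 8.94 to 9.15 in vehicle and from 6.98 to 8.78 at day 6, also without overlap. The 10 kidney miRNAs ran from 45.2 to 49.3 and from 37.5 to 46.6, and 5 stromal miRNAs from 7.82 to 8.98 and from 6.77 to 8.4, both with overlap. Their part in the members' differences was not tested.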

How the data were processed

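Per the labels, mirVana total RNA of each kidney was labelled with Cy3 for a 1-colour Agilent miRNA array. Per the file headers, Agilent Feature Extraction 10.7.1.1 measured the spots. Its deposited intensity values are on a linear scale, in arbitrary units, with local background taken off. The deposited flags of detection, outliers and background are yes or no marks. The deposited series values are log2, and their making is not given in the sources used here, so they served as an alternative. No column lacked a sample (0).

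Spot intensities of a probe were averaged, leaving out outlier-flagged spots unless all were flagged, and the probes of a miRNA were added up. Each array's sums were scaled to their 75th percentile among the 231 miRNAs detected throughout, since 45.6% of miRNAs at most were detected on an array. It was floored at the lowest detected value above 0 (0.000391, log2 -11.32) and log2 was taken. Of 5240 tested values, 7 lay at the floor. One departure from the plan was made, since 1 detected value was not above 0. No spot was saturated. The number of arrays limits the precision.

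The levels of all 20 arrays entered a limma 3.58.1 model of group means in R 4.3.3, with 16 residual and 2.03 prior degrees of freedom. The 6 pairwise contrasts and an F test were two-sided, with Benjamini-Hochberg adjustment over 262 miRNAs, called at 0.05. Intervals are at 95%, errors of differences are SEs and errors of levels SDs. The script was tested on simulated data.

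The members and lists were chosen with earlier results of these data known. By rule, values on every array are given for called members and for the 5 with the highest vehicle means (miR-3473, miR-3588, miR-6216, miR-6215 and miR-3099). miR-3558-3p, miR-3580-3p, miR-3593-5p and miR-3557-3p were added after their values were seen. Other miRNAs are named as position partners within 200 bases or by shared seed. Sequences, strands and overlaps are RefSeq's on GRCr8, and 91 of 102 members matched by name. Per the file headers, probe positions are on rn4, and they were used only to find neighbours. Slides were read from the array numbers.

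Alternatives covered background correction (normexp, offset 50), scaling, quantile normalization, probe summaries, outlier spots, filters, floors, slide and replicate blocks (random slide correlation 0.325), the variance model, the deposited series values, 2-group fits, slides holding both groups, and each array left out. Of these, 4 were added after the data were seen: slide block without AAI day 4 array 2, a floor of 0.01, and leaving out AAI day 6 arrays 3 and 4 or the 4 arrays with over 30 members detected.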

Additional observations from a re-analysis of the deposited data

Results flagged for a closer look

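With Dixon's test at the 95% level on 96 groups of 5 arrays, 7 held an array far from the others, where chance flags about 1 in 20. On AAI day 4 array 2 there were 38 members detected, a level of -0.99 for miR-3546, -0.52 for miR-6315 and -1.64 for miR-3562, each above the other 4 arrays. On AAI day 2 array 3 there were 27 members detected, the highest of its group, and a level of -0.61 for miR-3588, the lowest. On vehicle array 3 miR-3580-3p was lowest, at -6.31, and was not detected there. miR-6216 was 1.28 higher at AAI day 6 than at AAI day 2 (limma adjusted p = 0.0250, past the threshold in 24 of 33 alternatives). No slide held arrays of both days, so slide and day cannot be told apart within a slide.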

How the results depend on the processing

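At day 6 miR-6216 kept its direction in 33 of 33 alternatives and passed in 32, with adjusted p from 0.00125 to 0.0619. miR-3473 and miR-3562 passed in 24 of 33 each and miR-3584-5p in 20 of 33, all in the same direction. For day 6 against day 2, miR-6216 passed in 24 of 33 (adjusted p from 0.00794 to 0.189), in the same direction throughout. Directions turned for miR-3099 with slide as a fixed block (0.16) and for miR-3593-5p with the software's total signal (0.21). The cause was not tested.

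Counts of members called that moved by over 1.5 times were as follows. The count over all miRNAs of the same fit is in parentheses. Without scaling, with spike-in scaling, with the fixed slide block or without the 4 arrays with over 30 members detected, 262 miRNAs were tested. Without scaling, 1 was called at day 2 (9) and 2 at day 4 (14), all higher. Day 6 against day 2 then had 0 (3) and the F test 3 (21). With spike-in scaling these were 2 at day 4 (9), all higher, 0 for day 6 against day 2 (2) and 3 by F (16). With median scaling they were 1 at day 4 (7), higher, and 2 by F (17). At day 6 normexp gave 2 (24), no filter 2 (73) and the fixed slide block 9 (88). With no filter 1 was higher and 1 lower, and the others were all higher. For day 6 against day 2, no filter gave 0 (14), the random slide block 2 (29) and the fit of only these groups 2 (19). The fixed slide block gave 10 (95) there. Of these members 9 were higher and 1 lower, against 28 higher and 67 lower over all tested miRNAs. The fixed slide block also gave 4 for day 4 against day 2 (34), all higher, and 4 by F (39). Without AAI day 4 array 2 that block gave 0 members in all. Without AAI day 6 arrays 3 and 4, 6 were called for day 6 against day 2 (32), all lower, and 3 by F (34). Without the 4 arrays with over 30 members detected, 4 were called at day 4 (19) and 4 for day 4 against day 2 (7). That fit also called 3 for day 6 against day 4 (9) and 5 for day 6 against day 2 (50). All these members were lower. By F it called 5 (49).

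Leaving out each array in turn gave 0 members at day 2, 0 to 1 at day 4, 2 to 6 at day 6, 0 for day 4 against day 2, 0 to 1 for day 6 against day 4, 0 to 2 for day 6 against day 2 and 0 to 3 by F. Members detected per array ran from 23.5 to 24.5 in vehicle, 23.8 to 24.8 at day 2, 23 to 27 at day 4 and 27 to 30.2 at day 6. Counting a member only by the stricter well-above-background flag of its spots gave a mean of 17.8 for vehicle and 20.4 for day 2. That mean was 21.8 for day 4 and 23 for day 6. The same mean over all miRNAs is not given here.

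Replicate numbers did not pair the arrays. Over 30 pairs with the same number in other groups, the median correlation of deviations from group means was -0.0428. With a replicate block, 4 members were called at day 6 and 1 for day 6 against day 2, as without it.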
